A study of Ovis aries with 9 samples.

Results

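The collagen, laminin, nidogen, perlecan and fibronectin genes of sheep granulosa cells (GCs) were followed across 3 glucose concentrations. Members were chosen by name from the deposited gene table: every COL gene with an alpha chain number, every laminin alpha, beta or gamma chain gene, and FN1, NID1, NID2 and HSPG2. The rule found 54 of 39157 genes, each with 1 row. GCs of thin-tailed Han ewes aged 1 to 1.5 years came from follicles of 3 to 5 mm and were pooled from more than 50 ovaries. They were grown with 10% fetal bovine serum, kept for 8 h with neither glucose nor serum, and then cultured for 24 h with 0 mM glucose (CON, n = 3), 8.4 mM glucose (LOW, n = 3) or 33.6 mM glucose (HIGH, n = 3). All groups share the strain and the 8 h without glucose and serum. No source says that the 3 libraries of a group came from separate animals, so p-values measure only the spread between these cultures, which may be technical.

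A collagen is built from 3 alpha chains wound into a triple helix. Fibrillar collagens such as types I, III and V assemble into the fibres of the interstitial matrix, whereas type IV collagen forms the sheet of a basement membrane together with laminins, which are cross-shaped trimers of an alpha, a beta and a gamma chain. Nidogens and perlecan, the heparan sulfate proteoglycan encoded by HSPG2, link the collagen IV and laminin networks. In the ovarian follicle GCs rest on such a basement membrane, and its chain composition is known to change as the follicle grows.

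Every level below is an FPKM value, fragments per kilobase of gene adjusted to the depth of the library, scaled so that the median gene expressed in all libraries is equal between libraries. It is therefore per length and can be compared between genes. A FPKM of 1 stood for 48.0 to 71.3 fragments per kilobase, depending on the library. Log2 fold changes are of scaled FPKM + 0.1, which understates the change of low genes, and come from limma fitted over all 24365 genes that passed the filter (FPKM of at least 0.1 in at least 3 libraries). A gene was called at an adjusted p under 0.05 with an absolute log2 fold change above 1. Of the 54 members, 46 passed the filter and 8 did not.

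Matrix genes stood among the most abundant named genes of these cultures. COL3A1, COL12A1, COL1A2, FN1 and COL4A1 made up 50.2 to 63.8% of the summed level of the members in a library. By mean level COL3A1 ranked 74, COL12A1 87, COL1A2 166, FN1 256 and COL4A1 332 among 10994 named genes that passed the filter. In every library 18 members were at 10 or more and 31 at 1 or more, and 14 of the 46 tested members had a mean below 1. No member was at 0 in all libraries, and 9 were at 0 in at least 1. The plot of levels by class shows this range, from COL3A1 at 323 to 484 down to COL22A1, which had a value above 0 in 1 library only.

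**Figure D1:**
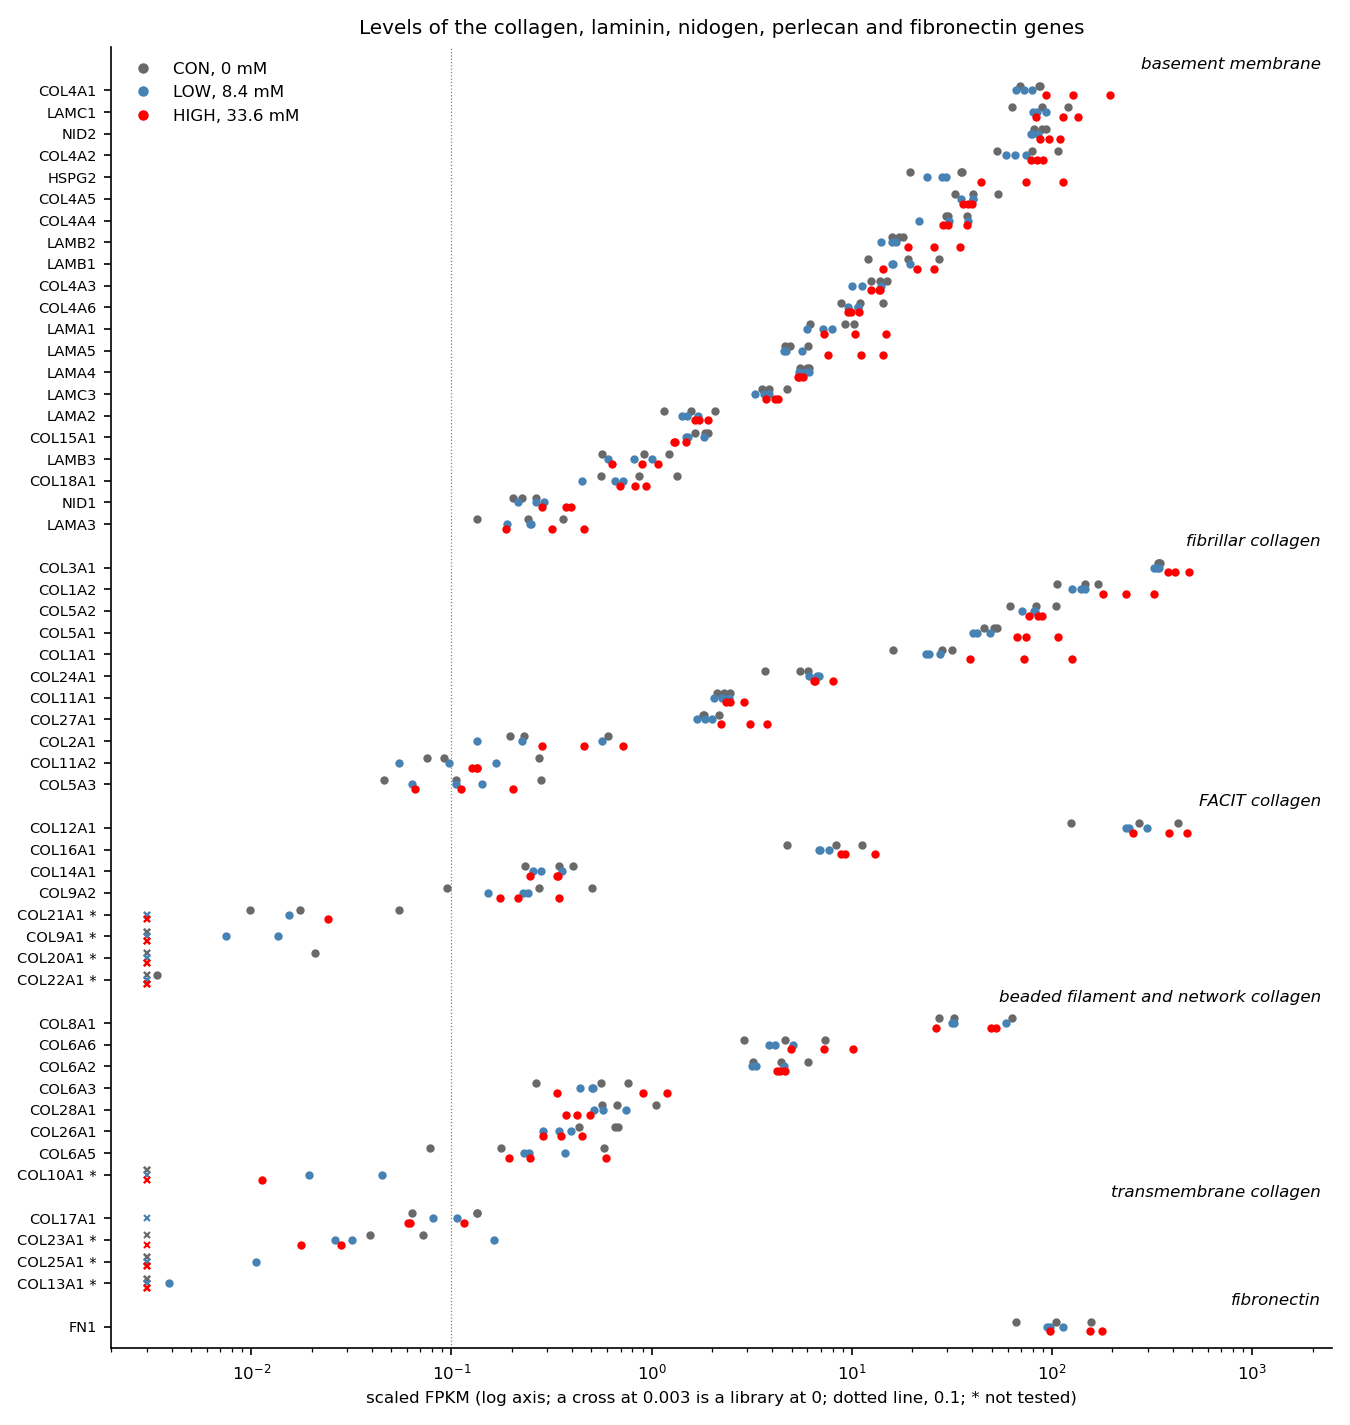
Scaled FPKM (log axis) of 53 members, grouped by class, with 1 point for each of the 9 libraries (CON gray, LOW blue, HIGH red). COL3A1 lies highest at 323 to 484, and the 8 members marked with an asterisk were not tested.

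The cultures were checked against cell type markers. CYP11A1, the enzyme that starts steroid synthesis and is active in GCs, was at 141 to 202, and NR5A2, a nuclear receptor of GCs, at 14.3 to 18.5. FSHR, the receptor that defines GCs in follicles of this size, was at only 0.228 to 0.577. AMH, CYP19A1, FOXL2 and INHBB were not found under these symbols in the deposited gene table, so their levels are not known here. Some markers of stroma and of smooth muscle lay above CYP11A1: LUM at 1756 to 2288, DCN at 242 to 323, TAGLN at 921 to 2832 and ACTA2 at 703 to 951. Other markers of those lists were lower. PDGFRA was at 18.1 to 52.4, MYH11 at 2.03 to 11.3, THY1 at 1.47 to 4.66 and TCF21 at 0 to 1.20. The endothelial genes CDH5 and EMCN were at 0 in all 9 libraries, and PECAM1, KDR and VWF were under 0.1 in each. The endothelial receptors TEK and TIE1 were at 0.531 to 0.978 and 0.348 to 0.725, and the theca enzyme CYP17A1 was at 0.139 to 0.421. The 7 stroma and fibroblast markers summed to 2099.7 to 2687 in CON libraries, 2375 to 2531 in those of LOW and 2146 to 2535 in those of HIGH, and the 6 smooth muscle markers to 2350.2 to 4017, 2890.3 to 3239 and 1774 to 3271. The 11 granulosa markers summed to 227 to 276 in CON libraries, 219 to 234 in those of LOW and 202 to 209.6 in those of HIGH. CYP11A1 alone made up most of that sum. In HIGH versus CON CYP11A1 was at -0.33 (SE 0.12, unadjusted p = 0.025) and INHA, the inhibin alpha chain, at -0.55 (SE 0.21, unadjusted p = 0.029) on the log2 scale. GATA4, a transcription factor of GCs, was at 0.45 (SE 0.27, unadjusted p = 0.13) in HIGH versus CON and 0.71 (SE 0.27, unadjusted p = 0.026) in HIGH versus LOW, and FST and AMHR2 were at 0.12 (SE 0.13, unadjusted p = 0.38) and 0.19 (SE 0.29, unadjusted p = 0.52) in HIGH versus CON. The remaining granulosa markers had negative log2 fold changes in HIGH versus CON (limma, unadjusted p = 0.12 to 0.83). NR5A1 was at -0.29, HSD3B1 at -0.17, FSHR at -0.14, HSD17B1 at -0.13, NR5A2 at -0.05 and INHBA at -0.03. With single libraries left out, CYP11A1 passed an unadjusted p of 0.05 in 5 of 9 fits and INHA in 7 in HIGH versus CON, and GATA4 in 5 in HIGH versus LOW. The part of these markers in the members' values was not tested. The 6 leukocyte markers summed to 15.4 to 21.5, and the 3 epithelial markers to 13.2 to 21.5 in CON libraries, 13.9 to 17.5 in those of LOW and 8.22 to 12.7 in those of HIGH. Collagen I and III are also made by stromal cells, and in bulk RNA a shift in the number of cells of a type cannot be told apart from a shift in RNA per cell.

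No member passed the call in any of the 3 comparisons by limma. In LOW versus CON 0 of 46 were called, against 0.00821% of all genes tested, and 0 were at an unadjusted p under 0.05 (background 1.83%, of which 0.928% were higher and 0.903% lower). In HIGH versus CON 0 were called (background 0.00821%) and 10 were at an unadjusted p under 0.05 (background 6.77%): 9 higher (background 4.1%) and 1 lower (background 2.67%). In HIGH versus LOW 0 were called (background 0.00821%) and 9 were at an unadjusted p under 0.05 (background 7.67%), with 9 higher (background 5.21%) and 0 lower (background 2.46%). The lowest adjusted p of a member was 0.565 in HIGH versus LOW, 0.651 in HIGH versus CON and 0.9999 in LOW versus CON. Comparisons with HIGH share the HIGH libraries and are not independent of each other.

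By class, 4 of 22 basement membrane members and 5 of 11 fibrillar collagens were higher in HIGH versus CON at an unadjusted p under 0.05 (background 4.1%). In HIGH versus LOW it was 4 of 22 and 5 of 11 (background 5.21%). The median log2 fold change of the members was -0.10 in LOW versus CON, 0.15 in HIGH versus CON and 0.24 in HIGH versus LOW, beside 0.01, 0.07 and 0.06 for all genes tested. The fold change was above 0 for 6, 31 and 41 of the 46 members in those comparisons, beside 12526, 13710 and 13524 of all 24365 genes tested. Groups did not overlap for 1 member higher and 1 lower in LOW versus CON (background 3% and 3.06%), for 11 higher and 2 lower in HIGH versus CON (background 5.2% and 4.19%) and for 12 higher and 2 lower in HIGH versus LOW (background 11.2% and 7.77%).

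**Figure D2:**
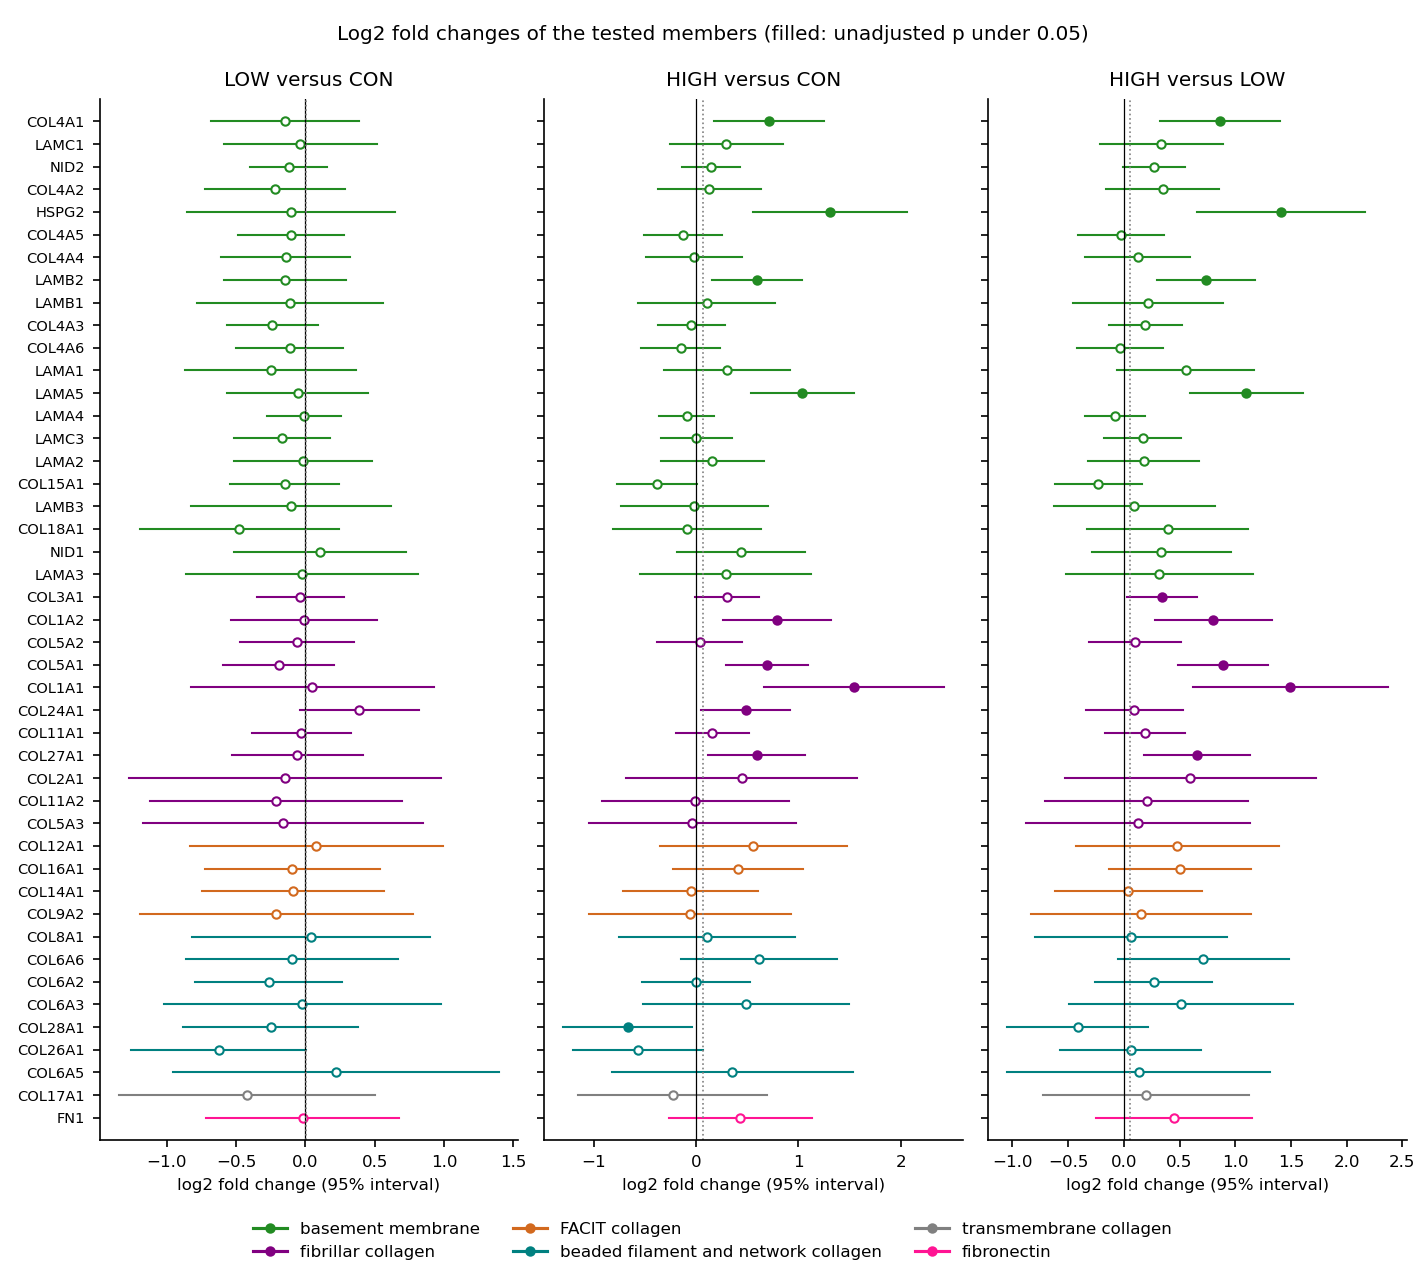
Log2 fold change of 45 tested members with its 95% interval from limma, in LOW versus CON, HIGH versus CON and HIGH versus LOW, coloured by class. Filled points are at an unadjusted p under 0.05 (0, 10 and 9 members), none of which passed adjustment, and the dotted line is the median of all genes tested.

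Among the fibrillar collagens, COL1A1 had the largest log2 fold change in both comparisons with HIGH. COL1A1 (ENSOARG00000004871, chromosome 11, 35993829 to 36010034, build not given in the sources used here) encodes the alpha 1 chain of type I collagen, and its level was 31.5, 28.1 and 16.1 in CON, 27.7, 23.5 and 24.4 in LOW and 126, 72.7 and 38.8 in HIGH. Every HIGH library lay above every CON and LOW library, and the spread within HIGH was wide, with replicate 1 highest and replicate 3 lowest. The log2 fold change of COL1A1 was 1.54 (SE 0.39, unadjusted p = 0.003) in HIGH versus CON, 1.49 (SE 0.39, unadjusted p = 0.0037) in HIGH versus LOW and 0.05 (SE 0.39, unadjusted p = 0.9) in LOW versus CON. COL1A2, the alpha 2 chain of type I collagen (ENSOARG00000001508, chromosome 4, 11656770 to 11692712), stood at 169, 146 and 106 in CON, 145, 139 and 126 in LOW and 322, 233 and 180.4 in HIGH. Here too HIGH did not overlap the other groups, at 0.79 (SE 0.23, unadjusted p = 0.0077) against CON and 0.80 (SE 0.23, unadjusted p = 0.0071) against LOW.

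Type III and type V collagen form mixed fibrils with type I. COL3A1, the most abundant member and the only chain of type III collagen, was at 339.9, 347 and 341 in CON, 344, 335 and 323 in LOW and 484, 413 and 379.6 in HIGH. CON and LOW libraries lay within a narrow band and all 3 HIGH libraries above it, with log2 fold changes of 0.31 (SE 0.14, unadjusted p = 0.056) against CON and 0.34 (SE 0.14, unadjusted p = 0.036) against LOW. The type V chain COL5A1, which regulates the start of fibril assembly, was at 45.8, 53.3 and 51.0 in CON, 40.4, 48.8 and 42.1 in LOW and 107, 74.0 and 66.4 in HIGH. HIGH did not overlap CON (0.69 (SE 0.18, unadjusted p = 0.0036)) or LOW (0.89 (SE 0.18, unadjusted p = 7.1e-04)). Its partner chain COL5A2 was at 61.8, 83.0 and 105 in CON, 70.4, 82.1 and 81.4 in LOW and 88.8, 76.7 and 84.8 in HIGH, with overlapping groups and a log2 fold change of 0.04 (SE 0.18, unadjusted p = 0.85) in HIGH versus CON (95% interval -0.38 to 0.45).

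The other fibrillar genes were lower. COL24A1, a minor fibrillar collagen, was at 6.03, 5.50 and 3.67 in CON, 6.82, 6.13 and 6.67 in LOW and 8.03, 6.57 and 6.45 in HIGH, and both glucose groups lay above all CON libraries (0.39 (SE 0.19, unadjusted p = 0.071) in LOW versus CON and 0.49 (SE 0.19, unadjusted p = 0.031) in HIGH versus CON). COL27A1, a fibrillar collagen of cartilage, had means of 1.93 ± 0.206 in CON, 1.85 ± 0.154 in LOW and 3.02 ± 0.778 in HIGH (SD, n = 3 each) and a log2 fold change of 0.60 (SE 0.21, unadjusted p = 0.019) in HIGH versus CON. COL11A1 lay between 2.05 and 2.89 in all libraries. COL2A1, COL11A2 and COL5A3 had means under 1 and overlapping groups.

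**Figure D3:**
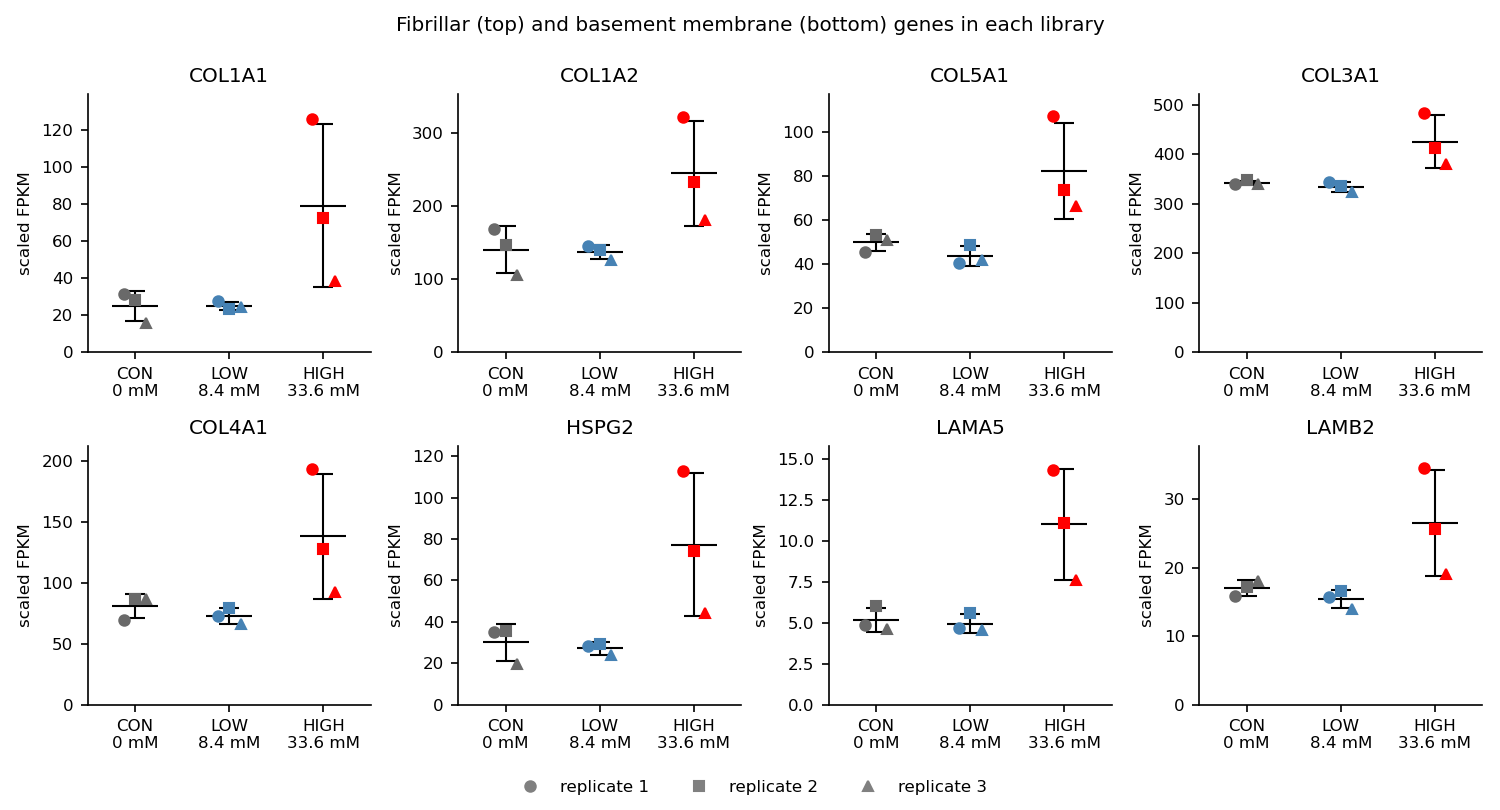
Scaled FPKM of 4 fibrillar collagen genes (top) and 4 basement membrane genes (bottom) in each library, with the group mean and SD as bars (n = 3) and the replicate number as the marker shape. All 3 HIGH points lie above every CON and LOW point in each panel, and replicate 1 is the highest HIGH point. Members whose HIGH and CON libraries overlap, such as COL5A2, COL4A2, LAMC1 and NID2, are not drawn.

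In the basement membrane class, COL4A1, HSPG2, LAMA5 and LAMB2 were the 4 members at an unadjusted p under 0.05 in HIGH versus CON. COL4A1 (ENSOARG00000006115, chromosome 10, 84218174 to 84267989) was at 69.2, 86.5 and 86.4 in CON, 72.4, 79.3 and 66.3 in LOW and 194, 128 and 92.8 in HIGH, and HIGH replicate 3 lay just above the highest CON library. The log2 fold change of COL4A1 was 0.72 (SE 0.24, unadjusted p = 0.014) in HIGH versus CON and 0.86 (SE 0.24, unadjusted p = 0.0053) in HIGH versus LOW. COL4A2, its neighbour on chromosome 10 with 76.3 kb between the genes and its partner in the common collagen IV trimer, was at 53.1, 79.2 and 107 in CON, 58.9, 73.9 and 65.5 in LOW and 90.2, 78.3 and 83.8 in HIGH. CON replicate 3 was the highest library for COL4A2, and the fold change against CON was 0.13 (SE 0.23, unadjusted p = 0.57), with a 95% interval of -0.37 to 0.64.

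For the remaining type IV chains the HIGH and CON libraries overlapped. COL4A5, a chain of the specialised collagen IV networks, had means of 42.0 ± 10.5 in CON, 38.4 ± 2.79 in LOW and 37.8 ± 1.96 in HIGH, and its HIGH versus CON log2 fold change was -0.13 (SE 0.17, unadjusted p = 0.47). COL4A6, 1.52 kb from COL4A5 on the X chromosome, was at 11.4 ± 2.76 in CON, 10.3 ± 0.709 in LOW and 10.1 ± 0.651 in HIGH. COL4A4 had means of 32.6 ± 4.53 in CON, 30.1 ± 8.15 in LOW and 32.1 ± 4.71 in HIGH and COL4A3, 0.656 kb from it on chromosome 2, means of 13.8 ± 1.28 in CON, 11.7 ± 1.99 in LOW and 13.3 ± 0.789 in HIGH. COL4A3 had the third smallest p in LOW versus CON, at -0.24 (SE 0.15, unadjusted p = 0.13), from levels of 15.0, 12.5 and 13.8 in CON, 13.9, 10.0 and 11.3 in LOW and 13.8, 13.7 and 12.4 in HIGH, and its groups overlapped.

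Perlecan had the largest fold change of the basement membrane class. HSPG2 (ENSOARG00000008248, chromosome 2, 243785044 to 243858886) was at 35.0, 35.4 and 19.6 in CON, 28.2, 29.3 and 23.7 in LOW and 113, 74.5 and 44.1 in HIGH. All HIGH libraries exceeded all others, and the log2 fold change was 1.31 (SE 0.33, unadjusted p = 0.0033) against CON and 1.41 (SE 0.33, unadjusted p = 0.0021) against LOW. NID2, a nidogen that bridges laminin and collagen IV, was at 93.7, 88.8 and 81.3 in CON, 78.1, 85.0 and 79.0 in LOW and 109.7, 96.6 and 86.9 in HIGH. Its fold changes were 0.15 (SE 0.12, unadjusted p = 0.26) in HIGH versus CON and 0.27 (SE 0.12, unadjusted p = 0.057) in HIGH versus LOW. The paralogue NID1 was low, with means of 0.231 ± 0.0316 in CON, 0.256 ± 0.0387 in LOW and 0.350 ± 0.0579 in HIGH.

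Of the laminin chains, LAMA5 and LAMB2 were higher at an unadjusted p under 0.05 in both comparisons with HIGH, and LAMC1 and LAMB1 were not. LAMC1, the gamma chain shared by most laminins, was the most abundant, at 121, 89.0 and 63.3 in CON, 93.5, 83.6 and 80.2 in LOW and 135, 113 and 82.7 in HIGH. CON and HIGH overlapped (0.30 (SE 0.25, unadjusted p = 0.26)). LAMA5 (ENSOARG00000013521, chromosome 13, 54200422 to 54247219), an alpha chain of mature basement membranes, was at 4.88, 6.03 and 4.61 in CON, 4.68, 5.63 and 4.57 in LOW and 14.4, 11.1 and 7.61 in HIGH. It had the smallest p of all members in HIGH versus CON, 1.04 (SE 0.23, unadjusted p = 0.0011), and was at 1.10 (SE 0.23, unadjusted p = 8.0e-04) in HIGH versus LOW.

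LAMB2, a beta chain that can pair with the LAMA5 product (ENSOARG00000014559, chromosome 19, 50828962 to 50841070), had levels of 15.9, 17.2 and 18.1 in CON, 15.8, 16.6 and 13.9 in LOW and 34.6, 25.7 and 19.1 in HIGH. HIGH lay above the other groups, with replicate 3 close to the highest CON library, and the fold changes were 0.59 (SE 0.20, unadjusted p = 0.014) and 0.74 (SE 0.20, unadjusted p = 0.0041) against CON and LOW. LAMB1, the alternative beta chain, had means of 19.5 ± 7.65 in CON, 17.1 ± 2.01 in LOW and 20.4 ± 5.81 in HIGH, with HIGH versus CON at 0.10 (SE 0.30, unadjusted p = 0.73). LAMA1, an alpha chain typical of the early embryo, had means of 8.57 ± 2.15 in CON, 7.06 ± 1.02 in LOW and 10.8 ± 3.77 in HIGH, and LAMA4, LAMC3 and LAMA2 lay between 1.16 and 6.10 in every library, with absolute log2 fold changes of at most 0.18 in every comparison. LAMB3, another beta chain, and LAMA3, another alpha chain, had means of 0.859 and 0.266 over all libraries.

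COL15A1 and COL18A1, the proteoglycan collagens of basement membrane zones, were low. COL15A1 had means of 1.80 ± 0.137 in CON, 1.61 ± 0.191 in LOW and 1.36 ± 0.108 in HIGH, and its HIGH libraries lay below all CON and LOW libraries (-0.38 (SE 0.17, unadjusted p = 0.057) against CON). COL18A1, the source of endostatin, had means of 0.919 ± 0.397 in CON, 0.606 ± 0.142 in LOW and 0.818 ± 0.125 in HIGH, and its groups overlapped. The summed level of the 22 basement membrane members was 536 ± 4.11 in CON, 483 ± 28.5 in LOW and 685 ± 152 in HIGH (SD, n = 3 each), and that of the 11 fibrillar collagens 651 ± 20.9 in CON, 629 ± 17.9 in LOW and 929 ± 196 in HIGH. In both sums the 3 HIGH libraries exceeded all others, at 847, 664 and 545 for basement membrane and 1144, 881 and 762 for fibrillar genes. For basement membrane, CON was at 532, 540 and 536, close to HIGH replicate 3. The sums contain members such as COL4A1, HSPG2, COL1A1 and COL1A2, whose HIGH libraries already lay above the others. They therefore give no separate support.

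The remaining classes held few members at a high level. COL12A1, a fibril-associated collagen that decorates type I fibrils, was at 427, 270.4 and 124 in CON, 297, 235 and 242 in LOW and 469.5, 385 and 254 in HIGH. CON spread as widely as the groups differed, and HIGH versus CON was 0.56 (SE 0.40, unadjusted p = 0.2). COL16A1, another fibril-associated collagen, was at 4.76, 8.36 and 11.2 in CON, 6.87, 7.65 and 6.96 in LOW and 13.0, 9.20 and 8.81 in HIGH, and COL14A1 at 0.405, 0.343 and 0.233 in CON, 0.279, 0.255 and 0.358 in LOW and 0.337, 0.342 and 0.248 in HIGH. Neither passed an unadjusted p of 0.05 in HIGH versus CON, nor did COL9A2.

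FN1, which encodes the cell-adhesive glycoprotein fibronectin, was at 156, 105 and 66.2 in CON, 113, 97.7 and 94.2 in LOW and 178, 154 and 97.3 in HIGH. Its groups overlapped, and HIGH versus CON was 0.43 (SE 0.31, unadjusted p = 0.2), with a 95% interval of -0.27 to 1.13. Among beaded filament and network collagens COL8A1, a short-chain collagen, was at 27.3, 32.2 and 63.2 in CON, 32.4, 58.6 and 31.7 in LOW and 26.4, 52.7 and 49.5 in HIGH, high in libraries of each group. COL6A6 was at 7.31, 4.66 and 2.89 in CON, 5.07, 3.85 and 4.13 in LOW and 10.1, 7.22 and 4.97 in HIGH and COL6A2 at 3.19, 4.44 and 6.06 in CON, 3.19, 4.60 and 3.33 in LOW and 4.64, 4.24 and 4.39 in HIGH, and COL6A3 and COL6A5 had means under 1. COL28A1 and COL26A1 were low in all groups.

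COL28A1 was at 0.564, 0.670 and 1.05 in CON, 0.573, 0.517 and 0.741 in LOW and 0.425, 0.489 and 0.375 in HIGH, and HIGH did not overlap CON (-0.67 (SE 0.28, unadjusted p = 0.041)). COL26A1 was at 0.431, 0.681 and 0.655 in CON, 0.346, 0.286 and 0.393 in LOW and 0.288, 0.446 and 0.354 in HIGH, and had the smallest p of all members in LOW versus CON (-0.63 (SE 0.28, unadjusted p = 0.052)). Of the transmembrane collagens COL17A1 was at 0.0633, 0.135 and 0.134 in CON, 0.0805, 0.106 and 0 in LOW and 0.0606, 0.115 and 0.0623 in HIGH, COL23A1 at 0.0391, 0 and 0.0722 in CON, 0.0318, 0.0261 and 0.163 in LOW and 0, 0.0282 and 0.0177 in HIGH and COL25A1 at 0, 0 and 0 in CON, 0.0105, 0 and 0 in LOW and 0, 0 and 0 in HIGH, and COL13A1 had a value above 0 in 1 library. The 8 members that were not tested were COL21A1, COL9A1, COL20A1, COL22A1, COL10A1, COL23A1, COL25A1 and COL13A1.

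Ratios between members within a library do not depend on how libraries were scaled. The ratio of COL1A1 to COL1A2 was 0.187, 0.192 and 0.152 in CON, 0.191, 0.168 and 0.193 in LOW and 0.391, 0.313 and 0.215 in HIGH. HIGH lay above both other groups, with means of 0.177 ± 0.0218 in CON, 0.184 ± 0.0137 in LOW and 0.306 ± 0.0883 in HIGH and a log2 difference of 0.76 from CON (exact two-sided permutation test p = 0.1, the smallest that 3 against 3 libraries can give). COL5A1 to COL5A2 had means of 0.623 ± 0.127 in CON, 0.562 ± 0.0402 in LOW and 0.985 ± 0.213 in HIGH, HSPG2 to NID2 of 0.338 ± 0.0848 in CON, 0.336 ± 0.0318 in LOW and 0.770 ± 0.262 in HIGH and LAMA5 to LAMA1 of 0.625 ± 0.138 in CON, 0.706 ± 0.0580 in LOW and 1.03 ± 0.0513 in HIGH, each without overlap between HIGH and CON. HIGH and CON also did not overlap in COL1A1 to COL3A1 (0.0737 ± 0.0236 in CON, 0.0753 ± 0.00531 in LOW and 0.180 ± 0.0793 in HIGH), COL4A1 to COL4A5 (1.96 ± 0.302 in CON, 1.90 ± 0.213 in LOW and 3.67 ± 1.38 in HIGH) and NID2 to NID1, where HIGH was lower (386 ± 66.6 in CON, 319 ± 40.0 in LOW and 281 ± 22.9 in HIGH). COL4A1 to COL4A2 had means of 1.07 ± 0.248 in CON, 1.10 ± 0.113 in LOW and 1.63 ± 0.520 in HIGH and overlapped (exact permutation p = 0.2).

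HIGH and CON overlapped in COL4A5 to COL4A6, LAMB2 to LAMB1, COL4A3 to COL4A4 and LAMC1 to LAMB1. COL4A5 to COL4A6 was 3.70, 3.63 and 3.73 in CON, 3.70, 3.73 and 3.72 in LOW and 3.97, 3.61 and 3.66 in HIGH, and its log2 difference between HIGH and CON was 0.02 (exact permutation p = 0.9). LAMB2 to LAMB1 had means of 0.996 ± 0.466 in CON, 0.908 ± 0.123 in LOW and 1.30 ± 0.0781 in HIGH, with CON spread on both sides of LOW (exact permutation p = 0.4 for HIGH versus CON). In all, 12 ratios were compared in 3 comparisons. Of these 36 tests 14 reached p = 0.1, and the exact permutation p adjusted over the 36 was 0.257 at the lowest. The pairs were chosen with earlier results of these data known. Several numerators, such as COL1A1, COL5A1, HSPG2 and LAMA5, are members whose HIGH libraries already lay above the others. Those ratios therefore give no separate support, and ratios of other gene pairs were not tested.

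**Figure D4:**
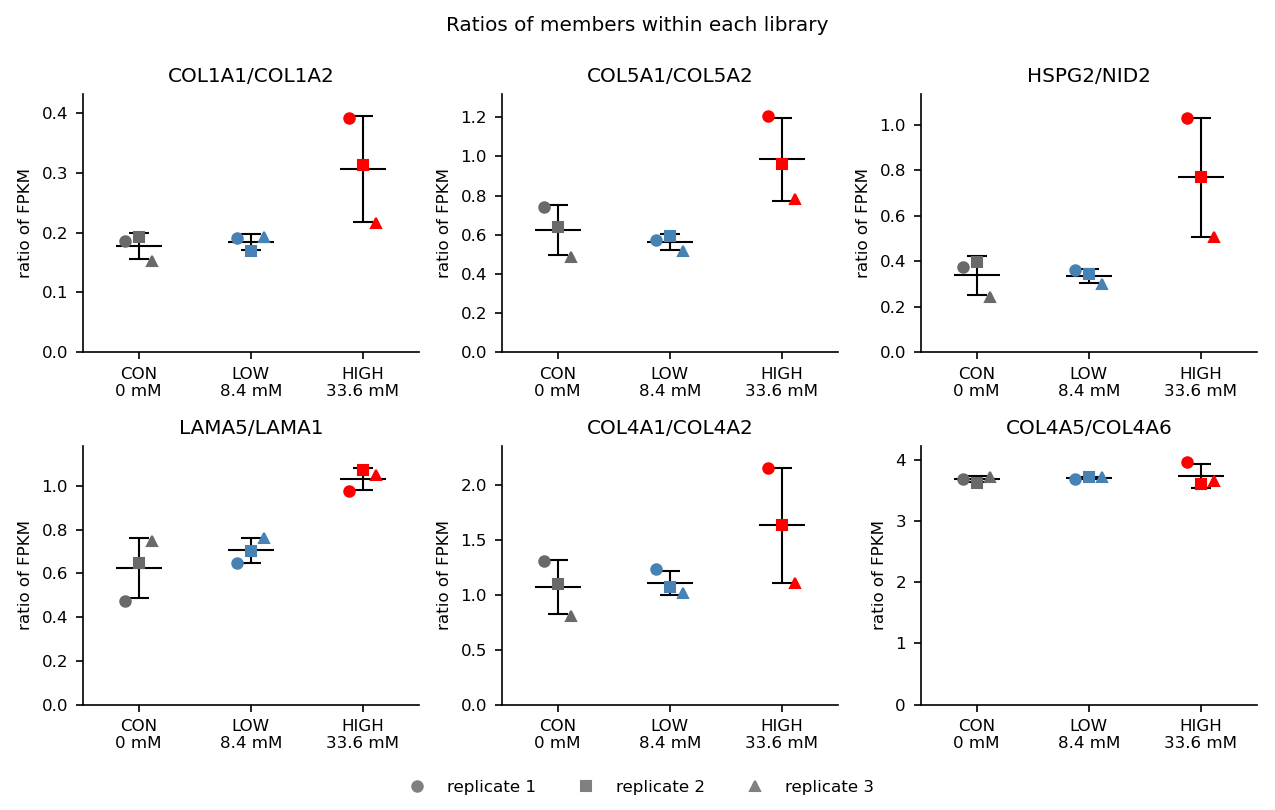
Ratio of FPKM between 2 members within each library for 6 pairs, with the group mean and SD (n = 3). HIGH lies above CON and LOW in COL1A1/COL1A2, COL5A1/COL5A2, HSPG2/NID2 and LAMA5/LAMA1, overlaps CON in COL4A1/COL4A2, and lies between 3.61 and 3.97 in COL4A5/COL4A6.

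The HIGH libraries differed among themselves in the members. In all 9 members that were higher in HIGH versus CON at an unadjusted p under 0.05, HIGH replicate 1 was the highest of its group and HIGH replicate 3 the lowest, an order found in 28 of the 46 tested members (60.9%) and in 33.2% of all genes tested. In CON, replicate 1 was the highest and replicate 3 the lowest in 15 of the 46 (32.6%) and in 38.1% of all genes tested. Assembled loci without an annotated gene took 42.4, 19.6 and 7.03% of the FPKM in HIGH replicates 1, 2 and 3, and 4.17 to 9.71% in the CON and LOW libraries. Small RNA genes took 30.3, 50.7 and 68.2% in HIGH and 52.1 to 72.1% in the others. The part of these shares in the members' values was not tested.

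Counts were taken again without single libraries. Without HIGH replicate 1, 7 members were higher at an unadjusted p under 0.05 in HIGH versus CON, where 3.25% of all genes passed in either direction, and 7 in HIGH versus LOW (3.82%). COL1A1, COL1A2, COL5A1, COL4A1, HSPG2, LAMA5 and LAMB2 passed an unadjusted p of 0.05 in both comparisons with each of the 9 libraries left out in turn. The other members at that p did not: COL24A1 passed in 7 of the 9 fits, COL27A1 in 6 and COL28A1 in 1 in HIGH versus CON, and COL27A1 passed in 8 and COL3A1 in 3 in HIGH versus LOW. Over the 9 fits the log2 fold change in HIGH versus CON was 1.13 to 1.98 for COL1A1, 0.98 to 1.66 for HSPG2 and 0.83 to 1.28 for LAMA5. Without CON replicate 3 and HIGH replicate 3, a setting added after the data were seen, 6 of 46 members were called in HIGH versus LOW, where 1.04% of all genes were called: HSPG2, COL1A1, LAMA5, COL1A2, COL5A1 and COL4A1. Their adjusted p in that limma fit was 0.025 to 0.042. HIGH replicate 3 was the lowest HIGH library in each of these 6, so leaving it out raised their difference by choice. Without CON replicate 1 and HIGH replicate 1 instead, 0 members passed adjustment in HIGH versus LOW, with a lowest adjusted p of 0.817.

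Transcripts were followed for members with more than 1. The transcript table held 109 transcripts of the 54 members, and 36 members had a single one. Of 91 transcripts tested, 0 were called in LOW versus CON (background 0.0253%), HIGH versus CON (background 0.0279%) or HIGH versus LOW (background 0.0355%). At an unadjusted p under 0.05 there were 4 in LOW versus CON (background 2.73%), 13 in HIGH versus CON (background 5.97%) and 12 in HIGH versus LOW (background 6.82%). The transcripts described next were chosen after their values were seen.

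COL4A4 kept its total level while the assignment among its transcripts differed. COL4A4-201, the annotated transcript, was at 16.3, 20.7 and 25.0 in CON, 2.16, 4.66 and 4.19 in LOW and 4.74, 17.2 and 19.9 in HIGH. All LOW libraries and HIGH replicate 1 lay below every CON library, at -2.51 (SE 0.52, unadjusted p = 0.001) in LOW versus CON with an adjusted p of 0.716. The assembled transcript TCONS_00147323 was listed at 0, 0 and 0 in CON, 10.3, 1.86 and 1.71 in LOW and 6.91, 0 and 0 in HIGH. It was thus above 0 in the same 4 libraries in which COL4A4-201 was low.

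COL8A1 divided in another way. COL8A1-201 was at 10.9, 0.151 and 57.7 in CON, 0.0337, 54.6 and 0.0826 in LOW and 0.0945, 49.7 and 29.4 in HIGH, and the assembled transcript TCONS_00008381 at 1.87, 26.1 and 0 in CON, 26.6, 0 and 25.9 in LOW and 23.7, 0.359 and 0.552 in HIGH. Each was near 0 in libraries where the other was high, and the division differed between libraries of the same group. COL5A1-201 (0.62 (SE 0.21, unadjusted p = 0.015) in HIGH versus CON) and the second COL5A1 transcript TCONS_00205465 (0.60 (SE 0.23, unadjusted p = 0.027)) moved together. COL5A1-AS1, a transcript named as antisense to COL5A1, was at 1.14, 0.967 and 1.31 in CON, 0.966, 1.42 and 1.33 in LOW and 3.28, 1.78 and 2.34 in HIGH (1.02 (SE 0.27, unadjusted p = 0.0044)). Whether reads were counted by strand is not given in the sources used here, so reads of COL5A1 and of COL5A1-AS1 cannot be told apart.

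**Figure D5:**
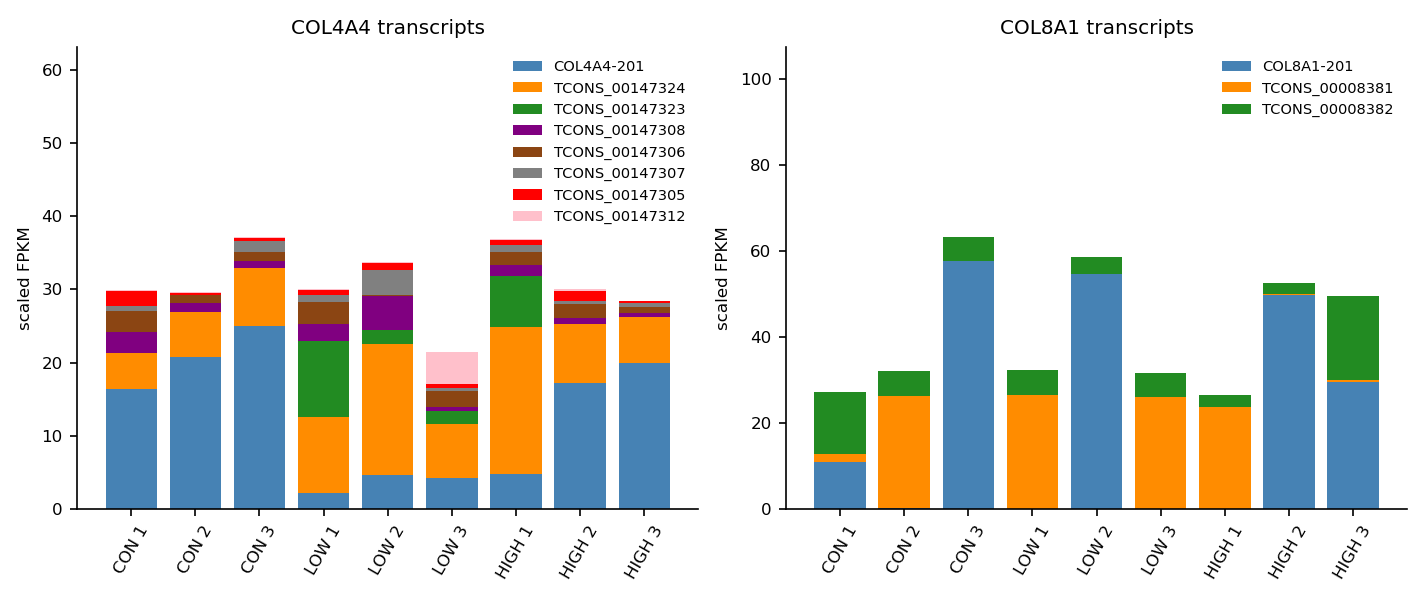
Scaled FPKM of the transcripts of COL4A4 (the 8 with the highest mean) and COL8A1 in each library, stacked. COL4A4-201 was at 2.16 to 4.74 in the 3 LOW libraries and HIGH replicate 1 and at 16.3 to 25.0 in the other 5, whereas COL8A1-201 was near 0 in libraries of all 3 groups.

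Genes that process, bind or remove matrix were taken from lists of known function, and none was called in any comparison. Of 32 genes for collagen folding, modification and crosslinking, 1 was at an unadjusted p under 0.05 in HIGH versus CON (6.77% of all genes tested) and 0 in LOW versus CON (1.83%) and HIGH versus LOW (7.67%). That gene was COLGALT2, which adds galactose to collagen (6.62, 4.98 and 5.21 in CON, 6.40, 5.95 and 6.50 in LOW and 8.00, 8.06 and 7.21 in HIGH), at 0.47 (SE 0.14, unadjusted p = 0.0083). SERPINH1, a chaperone that collagen folding needs, was at 619.9 to 763 with 0.04 (SE 0.15, unadjusted p = 0.81) in HIGH versus CON. PPIB and P4HB, a proline isomerase and a subunit of prolyl hydroxylase, were at -0.38 (SE 0.27, unadjusted p = 0.2) and -0.03 (SE 0.19, unadjusted p = 0.86).

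Of 19 matrix receptors tested, 2 were higher at an unadjusted p under 0.05 in HIGH versus CON (4.1% of all genes tested) and 4 in HIGH versus LOW (5.21%), with 1 lower in HIGH versus LOW (2.46%) and 1 lower in LOW versus CON (0.903%). DAG1, dystroglycan, which binds laminins and perlecan, was at 54.3, 52.7 and 44.7 in CON, 44.2, 47.5 and 39.7 in LOW and 108, 84.2 and 53.5 in HIGH. HIGH versus CON was 0.64 (SE 0.23, unadjusted p = 0.019) and HIGH versus LOW 0.85 (SE 0.23, unadjusted p = 0.0045). ITGA5, the alpha chain of the fibronectin receptor, was at 25.4, 20.7 and 14.0 in CON, 17.6, 18.9 and 16.2 in LOW and 38.4, 31.2 and 24.5 in HIGH (0.66 (SE 0.23, unadjusted p = 0.017) against CON). ITGB1, the beta chain of most collagen and laminin receptors, lay between 213 and 237 in all libraries, and ITGA2, a collagen receptor chain, was at -0.61 (SE 0.25, unadjusted p = 0.036) in LOW versus CON. ITGA2 passed that p in 4 of the 9 fits without 1 library, with a fold change of -0.96 to -0.43, and was at 10.6, 10.9 and 9.36 in CON, 5.32, 5.17 and 10.8 in LOW and 9.49, 9.67 and 9.65 in HIGH. DAG1 passed in 6 and ITGA5 in 7 of those fits in HIGH versus CON.

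Of 19 matrix proteases and inhibitors, 2 were lower at an unadjusted p under 0.05 in HIGH versus CON (2.67% of all genes tested) and 1 in LOW versus CON (0.903%). MMP1, interstitial collagenase, was at 2.22, 2.45 and 3.51 in CON, 1.71, 1.67 and 1.97 in LOW and 1.04, 1.55 and 1.84 in HIGH. It had log2 fold changes of -0.85 (SE 0.25, unadjusted p = 0.007) in HIGH versus CON and -0.56 (SE 0.25, unadjusted p = 0.048) in LOW versus CON. CTSK, a collagen-degrading cathepsin, was at -0.49 (SE 0.20, unadjusted p = 0.04) in HIGH versus CON, and MMP2 and TIMP1, the most abundant protease and inhibitor of the list, at 0.17 (SE 0.18, unadjusted p = 0.37) and -0.33 (SE 0.30, unadjusted p = 0.31). With single libraries left out, MMP1 passed in 9 of 9 fits in HIGH versus CON and 3 in LOW versus CON, and CTSK in 2.

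Of 25 other matrix and matricellular genes, 4 were higher at an unadjusted p under 0.05 in HIGH versus CON (4.1% of all genes tested) and 4 in HIGH versus LOW (5.21%). TNC, tenascin C, was at 4.42, 4.46 and 4.12 in CON, 4.50, 4.26 and 3.70 in LOW and 7.23, 6.22 and 5.51 in HIGH (0.53 (SE 0.15, unadjusted p = 0.0056) against CON). CCN1 and TGFB1, a matricellular protein and a growth factor, were at 1.07 (SE 0.39, unadjusted p = 0.021) and 0.98 (SE 0.36, unadjusted p = 0.021) in HIGH versus CON, and passed in 7 and 6 of the 9 fits without 1 library. SPARC, a collagen-binding protein, was at -0.09 (SE 0.22, unadjusted p = 0.7), and LUM, a fibril-binding proteoglycan, at 0.01 (SE 0.21, unadjusted p = 0.97). The stromal marker PDGFRA was at 39.9, 29.8 and 18.1 in CON, 39.1, 33.2 and 34.1 in LOW and 52.4, 47.6 and 40.8 in HIGH (0.74 (SE 0.25, unadjusted p = 0.015) in HIGH versus CON). In the same list THY1 was lower, at -0.70 (SE 0.30, unadjusted p = 0.043) in HIGH versus CON and -0.76 (SE 0.30, unadjusted p = 0.03) in HIGH versus LOW, and POSTN, DCN and TCF21 were at -0.27 (SE 0.18, unadjusted p = 0.17), -0.10 (SE 0.14, unadjusted p = 0.51) and -0.98 (SE 0.82, unadjusted p = 0.26) in HIGH versus CON. In the 9 fits without 1 library, PDGFRA passed in 9 and THY1 in 4 in HIGH versus CON. The part of these markers in the collagen values was not tested.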

How the data were processed

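RNA of 9 GC cultures (3 each in CON, LOW and HIGH) was depleted of ribosomal RNA and sequenced as paired-end libraries. According to the paper's methods, reads were aligned with HISAT2, assembled with Stringtie and counted with HTSeq 0.6.0. The upstream tools listed for the series also include STAR 2.5.1b, TopHat and TopHat2. The genome build is not given in the sources used here. The authors deposited FPKM per gene and per transcript. A second kind of table that the authors deposited under a read count name held, within 3%, FPKM times gene span times 1 factor per library (48.0 to 71.3, read as the depth of the library), so it was treated as a score and no count test was run. Libraries were brought to a common median over 11689 genes at FPKM 1 or more in all of them. Genes at FPKM 0.1 or more in at least 3 libraries and spanning at least 300 bases were fitted as log2(scaled FPKM + 0.1) in limma 3.58.1 (R 4.3.3) with all 9 libraries in 1 model, and p-values were adjusted by Benjamini-Hochberg over 24365 genes. In the transcript table, transcripts of Ensembl genes without a symbol were put back on the FPKM scale by 1 constant per library. The fitting code was run on simulated data in which libraries varied independently. That run checked the code only, since deviations of some of the real libraries were correlated. Ratios were compared by exact permutation tests (scipy 1.17.1). The members, classes, ratio pairs, marker lists and pathway lists were chosen with earlier results of these data known. The values of 1 member are not reported here, although counts, medians and sums over the members hold it. Values per library are given for the 5 members of highest mean in the basement membrane and fibrillar classes, the 3 highest in each other class and the 3 of smallest p in each comparison. From other lists, up to 3 genes of smallest p under 0.05 and up to 3 of highest mean were named, and others named were chosen after their values were seen. Alternatives were another pseudocount, filter, scaling, sample set, a replicate block and single libraries left out.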

Additional observations from a re-analysis of the deposited data

How the results depend on the processing

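None of the fold changes named at an unadjusted p under 0.05 changed sign under the alternatives run for it. Apart from leaving out pairs of libraries, 0 members were called in each comparison under every alternative. Transcripts were refitted only with another pseudocount, without scaling, with a replicate block and with single libraries left out. In those refits 0 transcripts of members were called. In LOW versus CON 0 members were at an unadjusted p under 0.05, beside 1.83% of all genes, against 1 with a pseudocount of 1 (1.79%), 1 without scaling (2.6%), 0 to 5 with single libraries left out (5 without CON replicate 1, 4.2%, and 1 without LOW replicate 1, 1.58%), 6 without CON replicate 1 and HIGH replicate 1 (4.46%), and 2 without CON replicate 3 and HIGH replicate 3 (5.45%). In HIGH versus CON the count was 10 (6.77%), and 7 to 15 with single libraries left out (15 of 46 without CON replicate 1, where 25.6% of all genes passed). In HIGH versus LOW it was 9 (7.67%), and 7 to 13 with single libraries left out (13 without HIGH replicate 3, where 16% passed). Without CON replicate 3 and HIGH replicate 3, it was 18 in HIGH versus LOW, where 29.2% of all genes passed, and 6 members, 1 matrix receptor and 1 other matrix gene were called. Without CON replicate 1 and HIGH replicate 1, 7 members were higher and 0 lower in HIGH versus LOW at that unadjusted p, where 5.06% of all genes passed, and 0 passed adjustment. Both pairs of libraries were left out as settings chosen after seeing the data, and the cause of the changes was not tested. COL4A1 and LAMB2 no longer passed an unadjusted p of 0.05 in HIGH versus CON without CON replicate 1 and HIGH replicate 1. The replicate numbers were not used as pairs, since deviations of same-numbered libraries did not all correlate above 0.1. They correlated at 0.0104 to 0.255 in LOW versus CON, -0.0267 to 0.424 in HIGH versus CON and 0.00278 to 0.177 in HIGH versus LOW. CON and HIGH libraries correlated at 0.42 for replicate 1 and 0.42 for replicate 3. CON replicate 1 with HIGH replicate 3 was at -0.44, and CON replicate 3 with HIGH replicate 1 at -0.42. Whether these libraries share a batch was not tested. With the replicate number as a block, 1 member was at an unadjusted p under 0.05 in LOW versus CON, 13 in HIGH versus CON and 14 in HIGH versus LOW, beside 2.6%, 15.1% and 16% of all genes, and 0 were called. In that limma fit the lowest adjusted p of a member was 0.19 in HIGH versus CON and 0.135 in HIGH versus LOW. Upper quartile scaling moved the median of all genes to 0.12 in HIGH versus CON and 0.11 in HIGH versus LOW, and left 11 and 10 members at an unadjusted p under 0.05. DESeq2 and edgeR were not run, because the deposited tables do not hold read counts. With 3 libraries a group, an exact test cannot go below 0.1, and the intervals of low members span several-fold changes.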
